A study of Mus musculus with 2 samples.

Results

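The genes described here take up, carry, store and export lipid: Apoe, Apoc2, Lpl, Fabp1, Fabp4, Fabp5, Plin2, Cidec, Abca1 and Abcg1. They were chosen by symbol, and these 10 symbols name 11 of the 27998 rows in each deposited matrix, because Apoc2 stands for 2 identifiers. Single-cell RNA sequencing with the 10x Genomics 3′ V2 chemistry had been done on lung suspensions of 2 mice, 1 labelled control and 1 labelled fibrosis. Both were C57Bl/6J males aged 3 months that had received 100 µg of particles through the trachea and were killed 14 days later. The particles were TiO2 (titanium dioxide) and crocidolite asbestos, a fibre that scars the lung. Since no label ties a particle to a mouse, only the names control and fibrosis are used below.

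Fatty acids and cholesterol reach a cell in lipoprotein particles or, in the airspace, in surfactant. Apolipoprotein E binds particles to their receptors, apolipoprotein C-II activates lipoprotein lipase, and lipoprotein lipase frees fatty acids from triglyceride. Fatty acid-binding proteins carry those acids through the cytosol, perilipin 2 coats the droplets in which they are stored, and Cidec lets droplets fuse and grow. The transporters Abca1 and Abcg1 move cholesterol out of the cell. Alveolar macrophages clear spent surfactant and depend on this chain, and lung macrophages that lack Abcg1 fill with lipid.

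The control library held 8280 cells and the fibrosis library 7173, with 36632591 and 38090308 unique molecular identifiers (UMIs, 1 for each captured transcript molecule). After filtering, 7510 and 6777 cells remained, and 11856 of these 14287 cells (83.0%) passed a gate for 1 of 21 cell classes, read from marker genes that include none of the 10 members. Names are rebuilt from transcripts, so each class is called "-like". Among the 10 genes that led the alveolar macrophage gate, 4 were its own markers and none those of another class. Because the gate selects cells by those markers, this count does not check the name. The gate held 614 control and 894 fibrosis alveolar macrophage-like cells, and 156 and 390 interstitial macrophage-like cells. Levels are given as CPM, a gene's UMIs scaled to 1000000 UMIs of the class, with exact Poisson 95% intervals. The libraries shared 89 cell barcodes. With 1 mouse per group there is no replicate check and no test between the groups. Every interval covers counting error only and says nothing about the spread between mice. In such sums, fewer expressing cells and less RNA per cell cannot be told apart unless the share of cells is given as well.

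Of the members, 6 were highest in alveolar macrophage-like cells in both libraries: Lpl, Fabp1, Fabp4, Plin2, Cidec and Abcg1. Apoe and Abca1 were highest in interstitial macrophage-like cells in both. Fabp5 was highest in AT2-like cells (alveolar epithelial type 2) in the control library and in migratory dendritic cell-like cells in the fibrosis library. That dendritic class had 11 control cells, too few to be ranked in the control library. Apoc2 was barely detected. The account below follows the members by role, first across classes and then between the libraries.

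**Figure D1:**
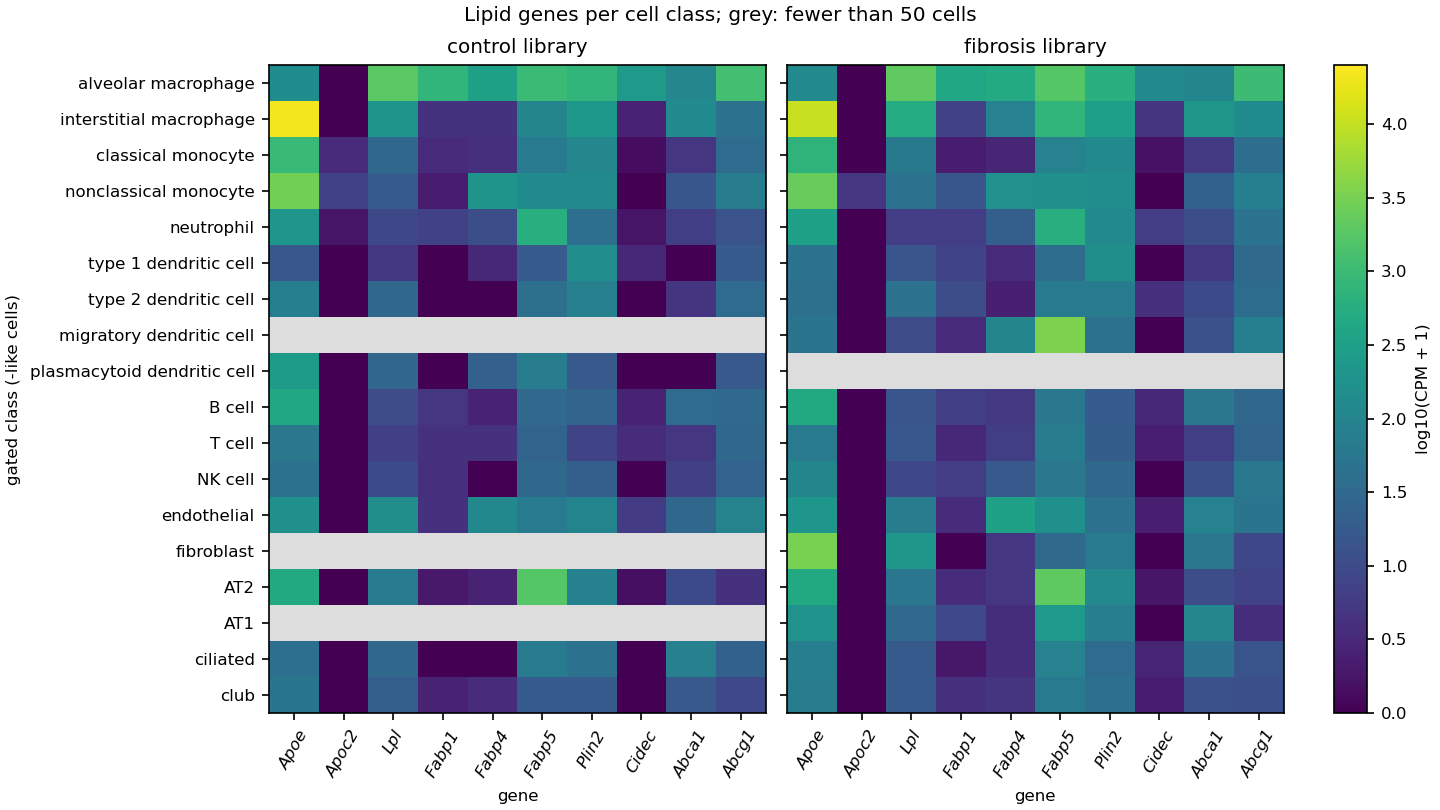
Heat map of the 10 lipid genes (columns) in each gated class (rows) of the control library (left) and the fibrosis library (right), coloured by log10(CPM + 1), with classes under 50 cells in grey. Alveolar macrophage-like cells lead for Lpl, Fabp1, Fabp4, Plin2, Cidec and Abcg1, while Apoe peaks in interstitial macrophage-like cells at 20798 and 10881 CPM.

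Apoe (ENSMUSG00000002985, chr7:19696109-19699188 on the minus strand of GRCm38) stood at 20798 CPM in control interstitial macrophage-like cells (20428 to 21173) and at 10881 CPM in those of the fibrosis library (10720 to 11043). After every cell was thinned to 1000 UMIs, 92.3% of the control cells and 83.3% of the fibrosis cells held an Apoe UMI. Nonclassical monocyte-like cells followed with 2908 and 2406 CPM, and classical monocyte-like cells with 917 and 723 CPM. Fibroblast-like cells of the fibrosis library, 52 in number, stood at 3290 CPM. AT2-like cells held 476 and 470 CPM, with intervals that overlapped. In alveolar macrophage-like cells Apoe was low, at 138 CPM in the control library and 123 CPM in the fibrosis library. T cell-like cells, a class in which little Apoe is known, held 54.2 and 60.9 CPM. In the control library 6.35% of thinned alveolar macrophage-like cells held an Apoe UMI against 3.87% of T cell-like cells, and these exact binomial intervals overlapped (4.56 to 8.58 and 2.38 to 5.91). Unthinned, the shares were 20.8% and 10.8%, at median depths of 4953.5 and 2734 UMIs. The Apoe of alveolar macrophage-like cells was also uneven, since 5 of the 614 control cells held 47.8% of its UMIs.

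Apoc2 (ENSMUSG00000002992, chr7:19671579-19677941, minus strand) had 30 UMIs in all kept cells, of which 28 were control and 2 fibrosis UMIs. Classical monocyte-like cells of the control library held 19 of them (2.46 CPM) and nonclassical ones 5 (6.44 CPM). No Apoc2 UMI lay in alveolar macrophage-like cells, which allows up to 0.952 CPM (control) and 0.586 CPM (fibrosis) by the limit of 3 counts. The other Apoc2 row (ENSMUSG00000109350, named Gm44805 in GENCODE M21) overlaps the gene on the same strand and was at 0 throughout, so the Apoc2 count is uncertain. At this depth no comparison of Apoc2 was possible.

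Lpl (ENSMUSG00000015568, chr8:68880491-68907448, plus strand) was 1 of the genes highest in alveolar macrophage-like cells. Its level was 1847 CPM (1800 to 1895) in control and 2091 CPM (2052 to 2131) in fibrosis alveolar macrophage-like cells. These cells held 85.9% and 86.1% of the Lpl UMIs of all gated cells. After thinning, 80.8% and 81.9% of them carried an Lpl UMI, against 1.16% and 1.70% of T cell-like cells. Interstitial macrophage-like cells came next in the fibrosis library with 519 CPM. In the control library they held 185 CPM, an interval that overlapped the 146 CPM of endothelial-like cells. Capillary endothelium is the site where lipoprotein lipase made by neighbouring cells is anchored and works.

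The 3 fatty acid-binding proteins occupied different cells. Fabp1 (ENSMUSG00000054422, chr6:71199827-71205023, plus strand), best known as the carrier of liver and gut, was almost restricted to alveolar macrophage-like cells, which held 97.7% of its control and 96.3% of its fibrosis UMIs. It stood at 799 CPM in the control library and 436 CPM in fibrosis, and the next class held 6.29 and 14.0 CPM. Fabp4 (ENSMUSG00000062515, chr3:10204088-10208576, minus strand), the carrier of fat cells, macrophages and capillary endothelium, was highest in the same 3 classes in both libraries. Alveolar macrophage-like cells held 326 and 488 CPM, endothelial-like cells 114 and 323 CPM, and nonclassical monocyte-like cells 192 and 168 CPM. The intervals of these 3 classes did not overlap within either library. In the fibrosis library migratory dendritic cell-like cells held 103 CPM, an interval that overlapped that of nonclassical monocyte-like cells, and interstitial macrophage-like cells 88.8 CPM. Fabp5 (ENSMUSG00000027533, chr3:10012548-10016607, plus strand), the epidermal carrier, was at 1746 and 2039 CPM in AT2-like cells, which held 66.9% and 59.5% of its UMIs. Alveolar macrophage-like cells held 1008 and 1764 CPM of it, neutrophil-like cells 571 and 604 CPM, and 78 migratory dendritic cell-like cells of the fibrosis library 3373 CPM. T cell-like cells held 24.5 and 72.6 CPM. Fabp5 has near-identical copies elsewhere in the genome, so its counts are uncertain.

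Of the storage genes, Plin2 (ENSMUSG00000028494, chr4:86648386-86670060, minus strand) was found in many classes. It was at 796 CPM in control and 625 CPM in fibrosis alveolar macrophage-like cells, at 219 and 299 CPM in interstitial ones, and at 142 and 156 CPM in type 1 dendritic cell-like cells. Cidec (ENSMUSG00000030278, chr6:113424634-113435760, minus strand) was almost restricted to alveolar macrophage-like cells, as Fabp1 was, with 97.4% and 95.5% of its UMIs there. Its level was 229 CPM in the control library and 125 CPM in fibrosis, and no other class exceeded 5.21 CPM.

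The 2 cholesterol exporters differed in where they were found. Abcg1 (ENSMUSG00000024030, chr17:31057675-31117988, plus strand) was at 1237 CPM in control and 1036 CPM in fibrosis alveolar macrophage-like cells, which held 86.4% and 88.8% of the gene. In the control library endothelial-like cells followed with 92.8 CPM, and interstitial macrophage-like cells 137 CPM in the fibrosis library. Abca1 (ENSMUSG00000015243, chr4:53030787-53159895, minus strand) was spread over macrophages, endothelium and epithelium. Interstitial macrophage-like cells held 129 and 211 CPM. Alveolar macrophage-like cells held 109 and 103 CPM, AT1-like cells of the fibrosis library 107 CPM, and control ciliated-like cells 80.1 CPM. In the control library the intervals of the 2 macrophage classes overlapped.

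**Figure D2:**
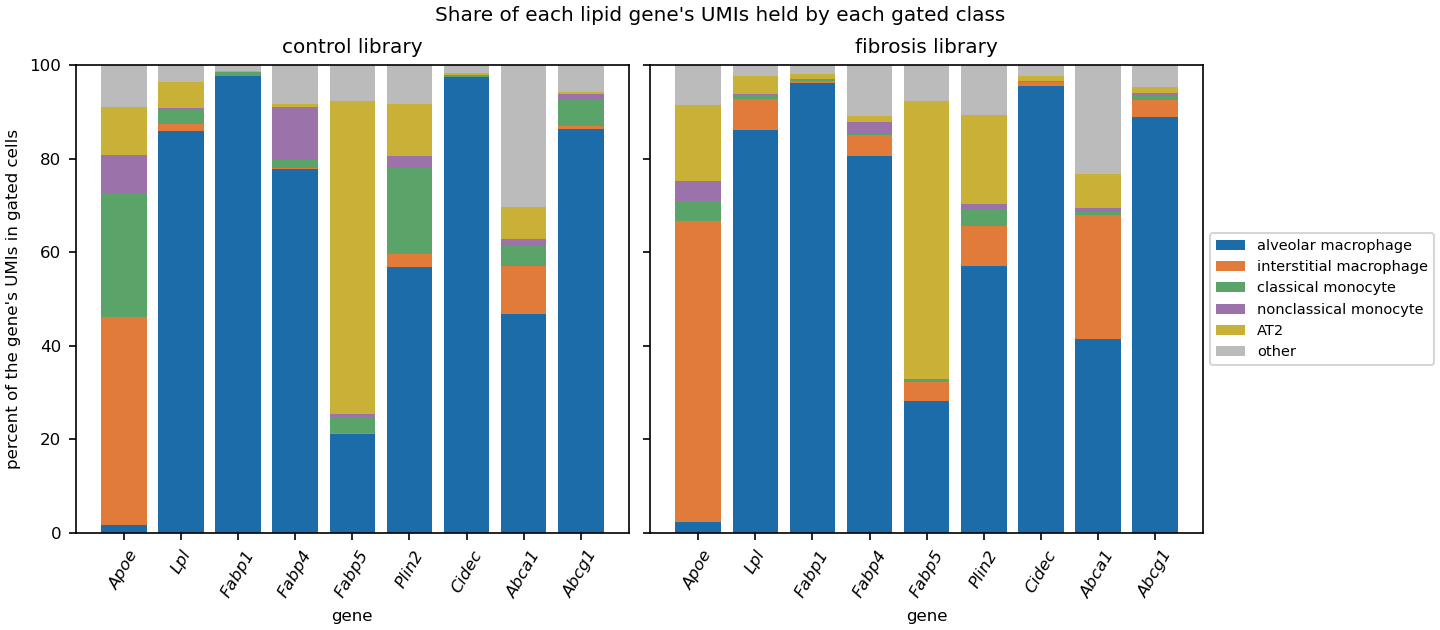
Stacked bars of the percent of each lipid gene's UMIs in gated cells that each class holds, for the control (left) and fibrosis (right) library; Apoc2 is left out for its 30 UMIs. Alveolar macrophage-like cells hold 97.7% and 96.3% of Fabp1 but 1.61% and 2.32% of Apoe, and AT2-like cells hold 66.9% and 59.5% of Fabp5.

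Promoter sequence is shown for Fabp1 and Cidec, the pair confined almost wholly to alveolar macrophage-like cells and lower together in the fibrosis library, and for Abca1, which was neither. Each line gives the 250 bases before the start on the gene's own strand, from RefSeq on GRCm38.p6: Fabp1 at chr6:71199629-71199878 (plus strand), Cidec at chr6:113435761-113436010 (minus strand) and Abca1 at chr4:53159896-53160145 (minus strand).
Fabp1: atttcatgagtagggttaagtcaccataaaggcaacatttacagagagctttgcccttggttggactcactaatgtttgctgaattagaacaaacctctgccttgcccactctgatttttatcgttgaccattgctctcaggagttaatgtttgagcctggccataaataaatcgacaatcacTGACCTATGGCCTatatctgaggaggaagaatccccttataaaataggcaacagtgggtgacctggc
Cidec: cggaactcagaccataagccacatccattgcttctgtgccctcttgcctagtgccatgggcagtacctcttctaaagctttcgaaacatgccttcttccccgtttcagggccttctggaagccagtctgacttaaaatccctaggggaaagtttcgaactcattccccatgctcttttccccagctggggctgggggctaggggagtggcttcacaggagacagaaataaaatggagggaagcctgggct
Abca1: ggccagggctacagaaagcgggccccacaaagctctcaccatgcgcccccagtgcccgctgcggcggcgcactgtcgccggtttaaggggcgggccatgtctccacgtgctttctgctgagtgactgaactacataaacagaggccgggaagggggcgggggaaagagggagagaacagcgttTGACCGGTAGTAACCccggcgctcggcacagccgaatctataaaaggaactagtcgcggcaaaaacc
The capitals in Fabp1 match, on the opposite strand, AGGNCA and AGGTCA with 1 base between them, the form of site that PPAR receptors are known to bind. The match ends 54 bases before the RefSeq start, which lies downstream of the GENCODE start of Fabp1 given above. The capitals in Abca1 match, on the opposite strand, GGTNA and GGTCA with 5 bases between them, the form of site that LXR receptors are known to bind, and end 52 bases before the start. Both patterns were searched on both strands, do not overlap each other in these windows, and were written after the promoters had been read. The first occurs in 31 of 32851 promoter windows of 300 bases (0.0944%) and the second in 68 (0.207%). The promoter table holds 9 windows for 6 members. Among them the first pattern also occurs in Apoc2, and neither occurs in Cidec, Plin2 or Apoe. A match describes letters only and is no evidence of binding in these cells.

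Between the libraries, the lipid genes of alveolar macrophage-like cells differed among themselves. Fabp1 and Cidec were lower in the fibrosis library by almost the same ratio, Fabp5 and Fabp4 were higher, and Lpl, Apoe, Abca1, Abcg1 and Plin2 stood closer to the control level. Of the 9 members with at least 20 UMIs over both libraries, 0 differed by 2-fold or more. Over all genes tested the same way, 527 of 10134 did, which is 5.20%. The members' median log2 ratio of fibrosis to control was -0.16 and that of all genes -0.07.

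Fabp1 stood at 436 CPM in the fibrosis library (418 to 454) and at 799 CPM in the control library (768 to 831), a log2 ratio of -0.87 (95% counting interval -0.96 to -0.79). Fewer cells held it: 27.2% of thinned fibrosis cells (24.3 to 30.2) and 42.8% of thinned control cells (38.9 to 46.9) had a Fabp1 UMI. Cidec stood at 125 and 229 CPM, a log2 ratio of -0.87 (-1.03 to -0.72), with a UMI in 12.98% and 21.0% of thinned cells. For both genes the intervals of the libraries did not overlap. With classes taken from clusters in place of gates, both ratios passed 2-fold, at -1.16 for Fabp1 and -1.14 for Cidec.

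Fabp5 went the other way, with 1764 CPM in the fibrosis and 1008 CPM in the control library, a log2 ratio of 0.81 (0.75 to 0.87). A Fabp5 UMI was found in 62.1% of thinned fibrosis cells and 43.0% of thinned control cells. Fabp4 stood at 488 and 326 CPM, a log2 ratio of 0.58 (0.47 to 0.69). Fabp5 was also above control in 13 of 13 other classes with 50 or more cells in each library, with a median log2 ratio of 0.84. That count was 9 of 13 with thinned cells and 10 of 12 with classes from clusters. Relative to the median of the other classes, the alveolar macrophage ratio of Fabp5 was -0.031 and that of Fabp4, measured in 5 other classes, -0.56.

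The remaining members differed little. Lpl stood at 2091 and 1847 CPM (log2 0.18, 0.13 to 0.23), and the droplet coat Plin2 at 625 and 796 CPM (log2 -0.35, -0.42 to -0.27). Abcg1 was at 1036 CPM in the fibrosis and 1237 CPM in the control library (log2 -0.26, -0.32 to -0.20). For Apoe (log2 -0.16, -0.34 to 0.02) and Abca1 (log2 -0.07, -0.27 to 0.13) the counting interval held 0. The share of thinned cells with an Apoe UMI went the other way, at 9.17% (7.36 to 11.3) in the fibrosis and 6.35% (4.56 to 8.58) in the control library. The Apoe value rested on the class rule, since clusters gave 176 CPM in the control library and 328 CPM in fibrosis.

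**Figure D3:**
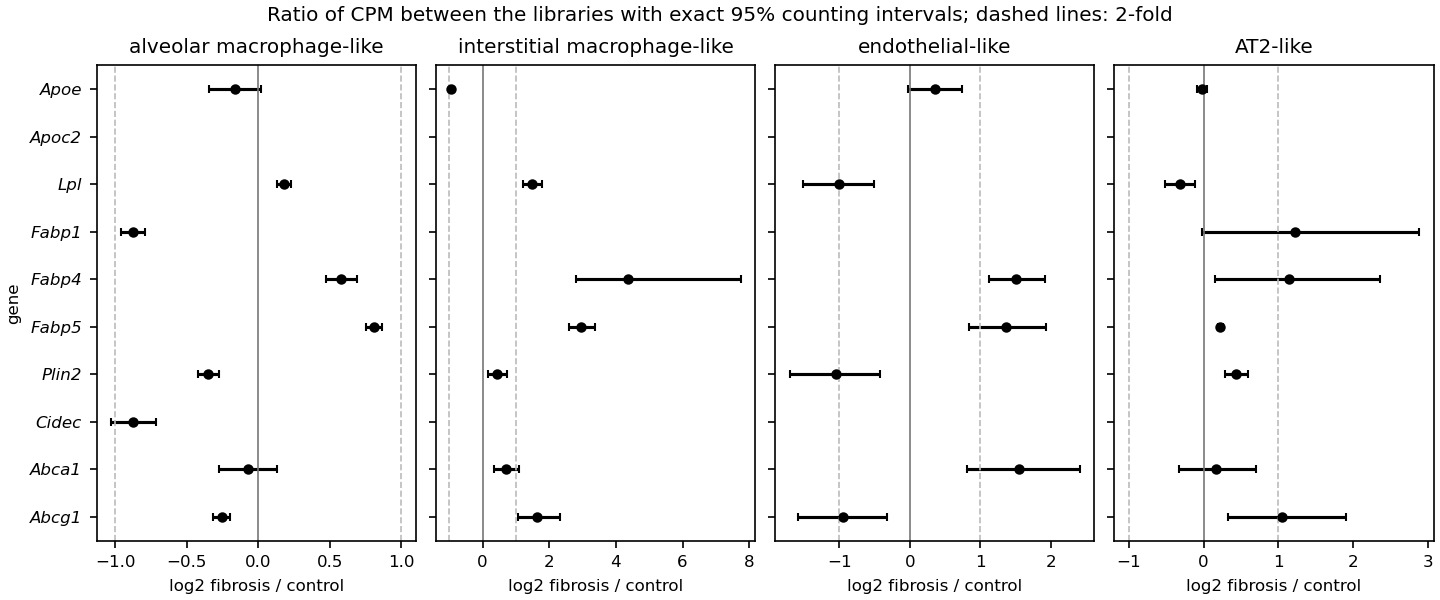
Log2 ratio of CPM, fibrosis over control, for each lipid gene in 4 classes, with exact 95% counting intervals; dashed lines mark 2-fold, the horizontal scales differ, and genes with under 20 UMIs are not drawn. In alveolar macrophage-like cells Fabp1 and Cidec sit at -0.87 and Fabp5 at 0.81, and in interstitial ones Fabp4, Fabp5, Lpl and Abcg1 lie above 2-fold.

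The fibrosis library holds alveolar macrophage-like cells with Mmp12, a macrophage elastase, that the control library nearly lacked. A limit of 0.1% of a cell's UMIs was passed by 143 of 894 fibrosis cells (16%, exact binomial interval 13.7 to 18.6) and by 1 of 614 control cells (0.163%). In the fibrosis library 47 gated cells lay between 0.05% and the limit, and 48 between the limit and 0.2%. The share rests on the class rule. Of other fibrosis cells past the limit, 51 in no gate and 44 gated as interstitial fell in alveolar macrophage-like clusters. Without the Mmp12-high cells, the difference between the libraries was smaller for Fabp1 and Cidec and still present. Fabp1 stood at 506 CPM in Mmp12-low fibrosis cells and 800 CPM in Mmp12-low control cells (log2 -0.66, -0.74 to -0.58), and Cidec at 138 and 229 CPM (log2 -0.73, -0.89 to -0.57). Fabp5 was at 1698 and 1008 CPM (log2 0.75, 0.69 to 0.81) and Fabp4 at 435 and 327 CPM (log2 0.41, 0.30 to 0.52). In this comparison 0 of 9 members reached 2-fold, against 409 of 9916 genes (4.12%).

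Within the fibrosis library, the Mmp12-high and Mmp12-low cells are cells of 1 mouse and not replicates. Fabp1 showed the widest gap of the 9 members, with 102 CPM (82.0 to 125) in Mmp12-high and 506 CPM (485 to 528) in Mmp12-low cells, a log2 ratio of -2.31 (-2.63 to -2.01). A Fabp1 UMI was found in 9.09% of thinned Mmp12-high cells (4.93 to 15.0) and 30.6% of Mmp12-low cells (27.3 to 34.1). Cidec stood at 63.8 and 138 CPM (log2 -1.10, -1.53 to -0.72). These 2 of 9 members were lower by 2-fold or more and 0 were higher. Over all genes 451 of 9364 were lower, which is 4.82%, and 355 were higher, which is 3.79%. The members' median log2 ratio was -0.26 and that of all genes -0.04. With a stricter gate margin the Cidec ratio was -0.96, just short of 2-fold. The Fabp1 ratio ran from -2.79 to -2.20 over 13 alternatives.

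The other carriers were higher in the Mmp12-high cells. Fabp4 stood at 738 CPM against 435 CPM (log2 0.76, 0.63 to 0.89), with a UMI in 35.0% and 24.1% of thinned cells. Fabp5 stood at 2079 and 1698 CPM (log2 0.29, 0.22 to 0.37) and Lpl at 2469 and 2012 CPM (log2 0.30, 0.23 to 0.36). Abcg1 was lower, at 892 against 1066 CPM (log2 -0.26, -0.37 to -0.15), and Plin2 differed within counting error, at 651 and 620 CPM (log2 0.07, -0.06 to 0.20). The lipase and the droplet coat thus stood at or above the Mmp12-low level where Fabp1 and Cidec were lower. Apoe (78.4 against 133 CPM, log2 -0.75) and Abca1 (73.9 against 109 CPM, log2 -0.56) were lower under the gates. With classes from clusters both turned, to 763 against 197 CPM (log2 1.95) for Apoe and 111 against 94.4 CPM (log2 0.24) for Abca1.

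**Figure D4:**
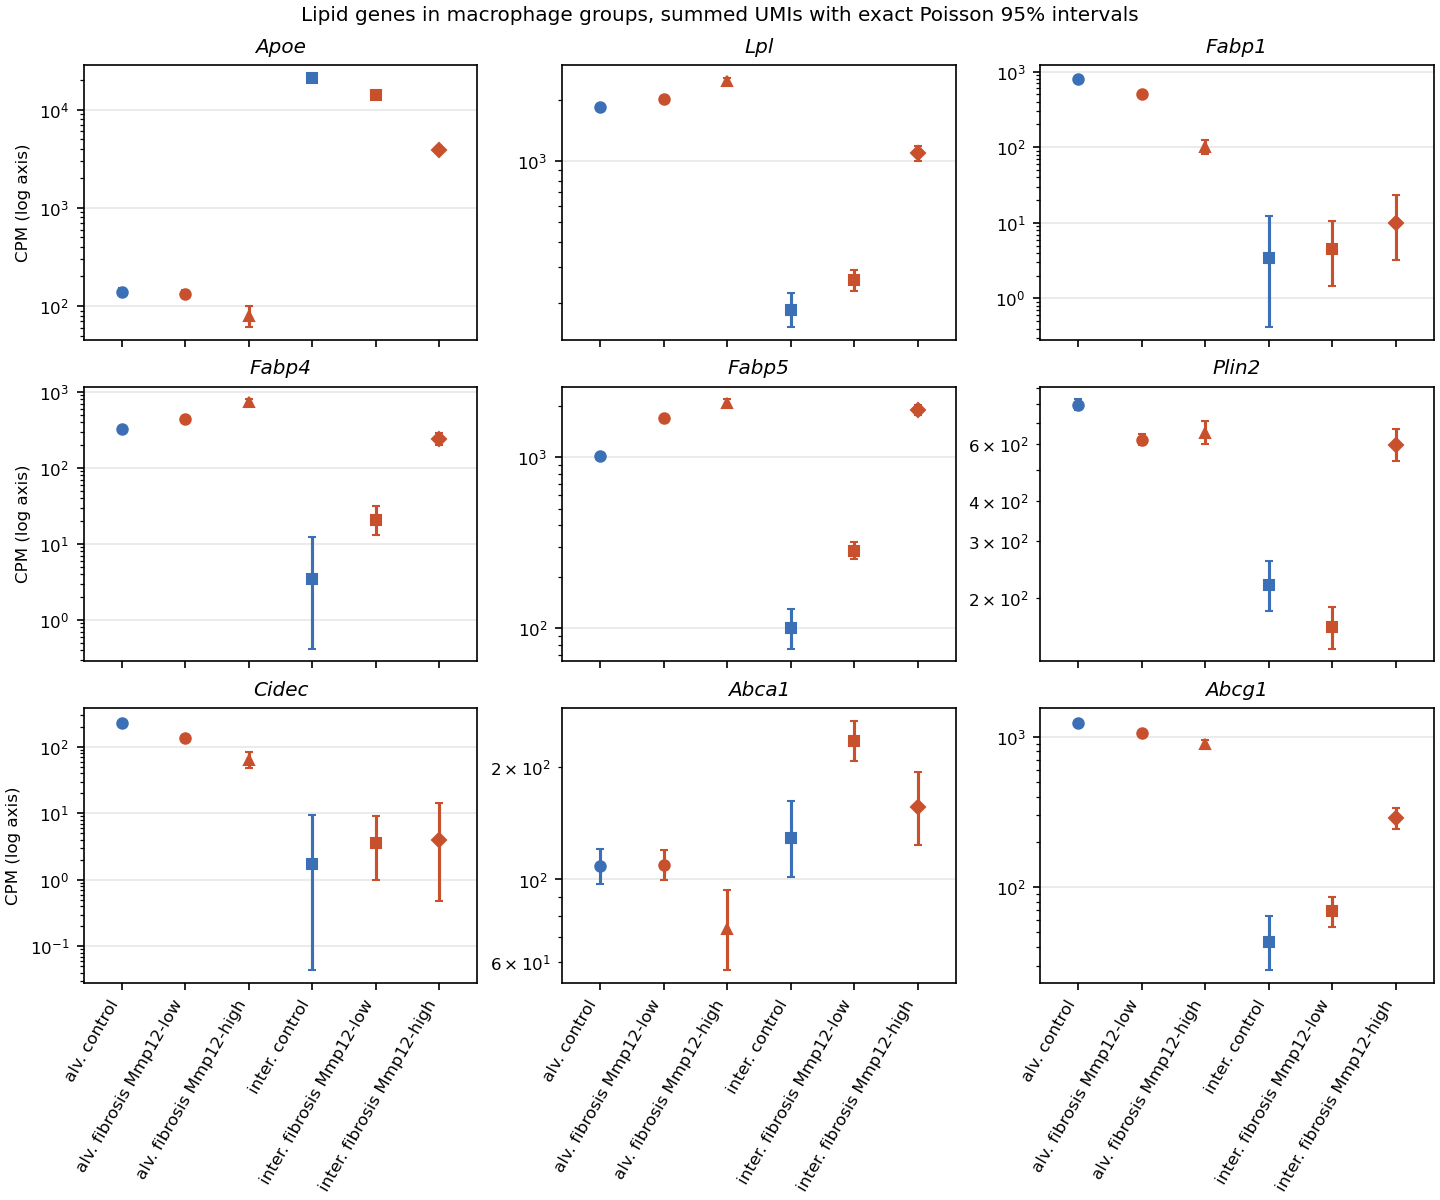
CPM of 9 lipid genes (log axes, scale set per gene) in control (blue) and fibrosis (red) macrophage-like cells, circles and triangles for alveolar, squares and diamonds for interstitial; bars are exact Poisson 95% intervals. Fabp1 runs from 799 to 506 to 102 CPM from control to Mmp12-low to Mmp12-high alveolar macrophage-like cells, while Fabp5 and Fabp4 are higher at each step.

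The split was also drawn in 4 steps of Mmp12 in the fibrosis library: 566 cells with no Mmp12 UMI, 185 with some but under 0.1%, 97 from 0.1% to under 0.5%, and 46 at 0.5% or more. Fabp1 stood at 594, 287, 128 and 38.3 CPM along these steps, and Cidec at 159, 86.6, 72.8 and 42.1 CPM. Fabp4 stood at 383, 563, 731 and 754 CPM. Fabp1 was thus lower at every step, and already in cells below the limit. Lpl had no steady direction over the first 3 steps, at 2072 (2021 to 2124), 1861 (1785 to 1939) and 2001 CPM, and stood at 3603 CPM in the last. Fabp5 was at 1523 CPM in cells without Mmp12 and at 2134, 2104 and 2018 CPM in the others. Some markers of the class moved along the same steps. Ear1 stood at 915, 478, 503 and 222 CPM and the chitinase-like Chil3 at 26238, 53067, 69614 and 95783 CPM. Siglecf stood at 139, 84.1, 71.2 and 88.1 CPM. Between Mmp12-low and Mmp12-high cells, Marco and Krt79 were lower, and Ctsk and Itgax were higher. Atp6v0d2 (665 and 691 CPM), Car4 (603 and 573 CPM), Plet1 (940 and 781 CPM) and Mrc1 (781 and 945 CPM) differed less. Of the interstitial markers, C1qa stayed between 5.77 and 23.0 CPM.

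**Figure D5:**
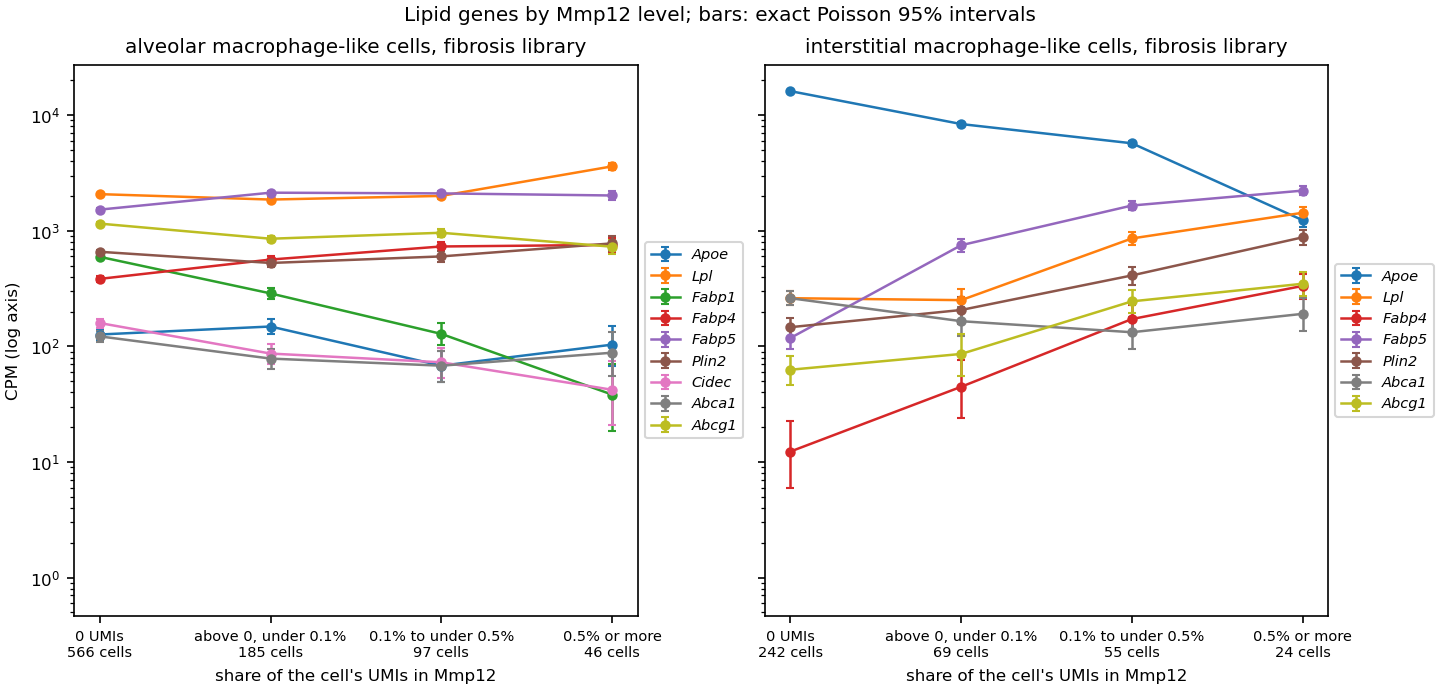
CPM (log axis) of the lipid genes in fibrosis cells grouped by the percent of the cell's UMIs in Mmp12, for alveolar (left) and interstitial (right) macrophage-like cells, with exact Poisson 95% intervals. On the left Fabp1 runs from 594 to 38.3 CPM and Fabp4 from 383 to 754 CPM; on the right Apoe runs from 16126 to 1234 CPM and Fabp5 from 118 to 2223 CPM.

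In interstitial macrophage-like cells, Apoe was lower in the fibrosis library and Fabp4, Fabp5, Lpl and Abcg1 were higher. Fabp1 and Cidec, with 12 and 7 UMIs over both libraries, were not measured. Apoe stood at 10881 CPM against 20798 CPM in the control library, a log2 ratio of -0.93 (-0.97 to -0.90). Fabp5 stood at 787 and 100 CPM (log2 2.96, 2.59 to 3.38), Lpl at 519 CPM (485 to 556) and 185 CPM (151 to 223), a log2 ratio of 1.49, and Abcg1 at 137 and 43.1 CPM (log2 1.64, 1.07 to 2.33). Fabp4 stood at 88.8 CPM against 3.45 CPM, the latter from 2 control UMIs (log2 4.37, 2.81 to 7.75). Of 7 members measured, 4 were higher by 2-fold or more, against 531 of 7708 genes (6.89%). The members' median log2 ratio was 1.49 and that of all genes -0.03. Members were also higher in some other classes, given below. Plin2 (299 and 219 CPM, log2 0.45) and Abca1 (211 and 129 CPM, log2 0.69) differed less. Of the 11 alveolar macrophage markers, 8 were higher in the fibrosis cells. Marco was lower, at 3.73 against 88.0 CPM, as was Krt79, at 4.97 against 6.90 CPM, and Mrc1 was at 523 CPM in both. The summed level of the 11 was 782 CPM in the control cells, with 2 markers at 0, and 8324 CPM in the fibrosis cells, with none at 0 and 6916 CPM from Chil3. Without Chil3 the sums were 680 and 1408 CPM. The interstitial markers summed to 20460 and 12951 CPM.

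The higher levels lay mostly in the 79 of 390 fibrosis cells (20.3%) past the Mmp12 limit, a split of this class added after the data had been seen. In these cells Lpl stood at 1088 CPM against 258 CPM in the other 311 cells (log2 2.07, 1.87 to 2.29), Fabp5 at 1882 against 285 CPM (log2 2.72, 2.54 to 2.91) and Fabp4 at 237 against 20.8 CPM (log2 3.48, 2.86 to 4.22). Plin2 was at 599 against 162 CPM (log2 1.88) and Abcg1 at 286 against 68.9 CPM (log2 2.05). Apoe was lower, at 3903 against 14082 CPM (log2 -1.85, -1.92 to -1.78). Thus 5 of 7 members were higher and 1 was lower by 2-fold or more, against 558 higher (8.25%) and 552 lower (8.16%) of 6765 genes. Along the steps of Mmp12, Apoe stood at 16126, 8370, 5707 and 1234 CPM and Fabp5 at 118, 749, 1652 and 2223 CPM. C1qa moved as Apoe did, at 5236, 3867, 3218 and 837 CPM. Apoe was lower along these steps in the control library too, at 23862, 9389 and 3552 CPM in 127, 24 and 5 cells. The 79 cells carried some markers of both classes, with 18473 CPM of Chil3 and 1156 CPM of Ctsk beside 2258 CPM of C1qa. They also held Itgax (537 CPM), Atp6v0d2 (478 CPM) and Mrc1 (375 CPM). The remaining alveolar markers were low in these cells. Plet1 stood at 49.4, Ear1 at 29.6, Car4 at 11.9, Siglecf at 7.90, Krt79 at 7.90 and Marco at 3.95 CPM. In the clustering, 44 of the 79 cells fell in alveolar macrophage-like clusters and 35 in the interstitial one. With classes from clusters the library ratios of this class were 0.50 for Lpl, 0.71 for Fabp5, 0.35 for Abcg1 and 1.44 for Fabp4, from 6.55 and 1.70 CPM. The part that mixed class membership plays in these ratios was not tested.

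The Mmp12-high cells of the alveolar and interstitial gates shared some lipid genes and not others. Fabp5 (2079 and 1882 CPM, log2 0.14, 0.03 to 0.26) and Plin2 (651 and 599 CPM, log2 0.12, -0.08 to 0.33) lay close together under the gates. Apoe separated them, at 78.4 CPM in alveolar and 3903 CPM in interstitial cells (log2 -5.63, -6.00 to -5.29). The size of this gap rested on the setting, since the ratio ran from -6.32 to -2.87 over 12 alternatives. Higher in the alveolar gate were Lpl (log2 1.18), Abcg1 (log2 1.64), Fabp4 (log2 1.63), Fabp1 (102 against 9.88 CPM, log2 3.24) and Cidec (63.8 against 3.95 CPM, log2 3.70), while Abca1 was lower (log2 -1.08). That made 5 higher and 2 lower of 9, against 618 higher (9.68%) and 444 lower (6.95%) of 6384 genes. Under clusters Fabp5 (log2 3.19) and Plin2 (log2 1.36) also separated them, and Abca1 turned to 0.69.

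Without their Mmp12-high cells, interstitial macrophage-like cells of the 2 libraries were closer in Apoe, Lpl, Fabp4, Fabp5 and Abcg1, and not in Abca1 or Plin2. Lpl stood at 258 CPM in fibrosis and 179 CPM in control cells (log2 0.52), Abcg1 at 68.9 and 40.9 CPM (log2 0.73), and Abca1 at 236 and 133 CPM (log2 0.82). Plin2, higher with all cells, was lower without them, at 162 against 222 CPM (log2 -0.46, -0.79 to -0.11). Apoe was at 14082 and 21307 CPM (log2 -0.60, -0.63 to -0.56). Fabp5 (285 and 103 CPM, log2 1.46) and Fabp4 (20.8 and 3.55 CPM, log2 2.26) were the 2 of 7 members past 2-fold, against 284 of 6894 genes (4.12%) that were higher. With classes from clusters the Fabp5 ratio was 0.55, and with thinned cells that of Fabp4 was -0.31.

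In other classes, endothelial-like cells showed lipid genes that differed in opposite directions between the libraries. Fabp4 stood at 323 CPM in 180 fibrosis cells and 114 CPM in 243 control cells (log2 interval 1.12 to 1.91), Fabp5 at 160 and 61.9 CPM (log2 1.36, 0.83 to 1.93) and Abca1 at 87.0 and 29.3 CPM (log2 1.54, 0.80 to 2.41). Lpl stood at 72.7 and 146 CPM (log2 -1.01, -1.52 to -0.51) and Plin2 at 45.5 and 94.4 CPM (log2 -1.05, -1.70 to -0.43). Of 7 members, 3 were higher and 2 lower by 2-fold or more, against 433 higher (5.67%) and 401 lower (5.26%) of 7630 genes. These ratios moved with the setting: with cells of at least 2000 UMIs the Lpl ratio was -0.42, and with cells bearing markers of another lineage kept it was -0.56 for Lpl and -0.34 for Plin2. The Abca1 ratio was 0.87 with thinned cells. The Fabp5 ratio ran from 0.55, relative to the median of the other classes, to 1.86. The Fabp4 ratio ran from 0.92, relative to the median of the other classes, to 2.28, with thinned cells. The clusters named endothelial held 150 control and 67 fibrosis cells, 158 and 158, and 6 and 25. The part that this mix of cells plays in the ratios was not tested.

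In AT2-like cells, which make surfactant, the lipid genes stood nearer the control level. Fabp5 stood at 2039 CPM in 1558 fibrosis cells and 1746 CPM in 948 control cells (log2 0.22, 0.19 to 0.26), and Plin2 at 115 and 84.9 CPM (log2 0.44, 0.28 to 0.60). Apoe was at 470 and 476 CPM (log2 -0.02, -0.09 to 0.05) and Lpl at 51.6 and 64.0 CPM (log2 -0.31, -0.51 to -0.11). The 3 of 8 members past 2-fold, Fabp1, Fabp4 and Abcg1, were all at or below 6.96 CPM. All 3 were higher in the fibrosis library, as were 375 of 11288 genes (3.32%). Among monocytes, Lpl was higher in the fibrosis library, at 58.4 against 27.9 CPM in classical monocyte-like cells (log2 1.07, 0.69 to 1.42), and was the 1 of 8 members past 2-fold, against 416 of 9531 genes (4.36%) that were higher. In nonclassical cells it rested on 21 and 14 UMIs (log2 1.21, 0.18 to 2.31) and was the 1 of 7 members past 2-fold, against 177 of 5376 genes (3.29%). With classes from clusters that ratio was 0.11. Apoe was lower in both, at 723 against 917 CPM (log2 -0.34) and 2406 against 2908 CPM (log2 -0.27). In T cell-like cells 3 of 5 members were higher by 2-fold or more, against 392 of 7568 genes. Their levels were low, with Lpl at 14.4 CPM in fibrosis and 5.81 CPM in control cells. That count was 2 of 4 in NK cell-like cells (152 of 5076 genes) and in neutrophil-like cells (827 of 3730). It was 2 of 4 in type 1 dendritic cell-like cells (274 of 6138). In B cell-like and type 2 dendritic cell-like cells it was 0 of 6 (285 of 7437) and 0 of 5 (269 of 4648).

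Other genes of the same pathways were read from a list of 59, of which 45 were measured in alveolar macrophage-like cells. Between the libraries 1 was higher and 1 lower by 2-fold or more, no larger a share than the 5.20% of all genes. Msr1, a scavenger receptor for modified lipoproteins, stood at 27.7 CPM in fibrosis and 6.98 CPM in control cells (log2 1.96, 1.33 to 2.71). G0s2, an inhibitor of the triglyceride lipase Pnpla2, stood at 13.5 and 27.0 CPM (log2 interval -1.48 to -0.53). The list's median log2 ratio was -0.13, and none of the 11 genes of cholesterol egress and sterol sensing or of the 7 of fatty acid entry passed 2-fold. In Mmp12-low cells alone Msr1 was at 21.0 and 6.67 CPM (log2 1.63, 0.96 to 2.42).

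Between Mmp12-high and Mmp12-low fibrosis cells, 3 of the 45 were higher and 4 lower, against 3.79% and 4.82% of all genes. Cd36, a receptor that takes up fatty acids and oxidised lipoprotein, stood at 656 CPM against 278 CPM (log2 1.24, 1.09 to 1.38) and Msr1 at 59.3 against 21.0 CPM (log2 interval 0.98 to 2.002). Lower were Mylip, a ligase that degrades the LDL receptor, at 17.9 against 49.4 CPM (log2 -1.42), the triglyceride-forming enzyme Dgat2 at 8.95 against 20.3 CPM (log2 -1.10), and G0s2 at 3.36 against 15.6 CPM, the former from 3 UMIs (log2 interval -4.53 to -0.61). In interstitial macrophage-like cells 13 of 39 list genes were higher and 0 lower in Mmp12-high cells, against 8.25% and 8.16% of all genes, with a median log2 ratio of 0.70 against 0.03 for all genes. Between the libraries 9 of 40 were higher in that class, against 6.89% of all genes, and 1 was lower. Of the 79 Mmp12-high cells of that class, 44 fell in alveolar macrophage-like clusters. The list was not recounted with classes from clusters.

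Single alveolar macrophage-like cells held several lipid genes at once. At 1000 UMIs a median of 3 of the 10 members was detected per cell in both libraries, and 20.8% of control and 19.2% of fibrosis cells held 5 or more. In Mmp12-high cells that share was 13.3%. Interstitial macrophage-like cells held a median of 1 (control) and 2 (fibrosis). In the fibrosis alveolar macrophage-like cells, 76.2% of the 231 with a Fabp4 UMI also held Fabp5, against 57.2% of the 663 without. In the control library these shares were 58.0% of 112 cells and 39.6% of 502. Fabp4 was found in 23.5% of the fibrosis cells that held Fabp1 and 26.7% of those that did not. Within Mmp12-high cells these shares were 61.5% of 13 cells and 32.3% of 130, and within Mmp12-low cells 21.3% of 230 and 25.3% of 521.

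Across 29 sums of class and library, genes most like the members were found by Pearson's r of log2(CPM + 10) among 11511 genes. The sums share libraries and differ in depth, so these values only describe. Lpl was most like Hebp1 (r 0.97) and Gdf15 (r 0.94). Fabp1 and Cidec both had Wfdc10 among their closest 2 genes (r 0.98 for each). Abcg1 was most like Olr1, a receptor for oxidised lipoprotein (r 0.94), and Cd274 (r 0.94). Plin2 was most like the lysosomal ceramidase Asah1 (r 0.91), Fabp4 like Tgm2 (r 0.90), Abca1 like Tgfbr2 (r 0.91) and Fabp5 like Atp6v0a1 (r 0.88).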

How the data were processed

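Raw UMI counts per gene and cell were deposited by the authors for 2 libraries. Per the submitters' processing notes, bcl2fastq and Cell Ranger 1.3 with mm10 were used; their order and settings are not given in the sources used here. Gene positions are from GENCODE M21 and promoters from RefSeq (GRCm38.p6).

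Cells with fewer than 200 genes (1 control cell) or over 10% mitochondrial UMIs (254 and 228) were left out. Doublet scores came from scrublet, run through scanpy 1.11.5 on each library. Its threshold marked 13 of 8025 control cells (0.162%), so the 515 top-scoring cells (6.42%) were removed there; in the fibrosis library it marked 168 of 6945 (2.42%), and these were removed, so removal was unequal. Kept cells had medians of 3691 and 4287 UMIs.

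Each cell was scored for 21 marker lists by the mean z-score of its log counts per 10000. A gate needed 3 markers with a UMI, a score above 0.5 and a lead of 0.25 over the next class, with 405 cells just inside and 438 just outside that lead. The 866 cells whose score for another lineage reached 33.3% of the first were left out. These thresholds were set after the lipid genes had been seen under several of them, and 65 fibrosis cells past the Mmp12 limit were in no gate. In no class did another class's markers outnumber its own among the 10 leading genes at 50 CPM or more. Since cells were gated on these markers, that is no independent check of the names. The Mmp12 split used the limit of 0.1% of a cell's UMIs; the split of interstitial cells and the comparison of Mmp12-high cells between gates were added after the data had been seen.

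UMIs were summed per class and library (classes of 50 or more cells in each library, 14 in all). Ratios add 0.5 UMI to each sum and carry exact conditional binomial 95% intervals. A gene counts as 2-fold apart with at least 20 UMIs over the sums compared. With 1 mouse per group no test was made. All 10 members are named; pathway genes are named when 2-fold apart in alveolar macrophage comparisons with an interval that leaves out 1, and the 2 genes most like each member by r were taken among genes with 200 UMIs. The members and lists were chosen with earlier results of these data known. The calculation was tested on simulated data. The likeness result for 1 member is not reported here.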

Additional observations from a re-analysis of the deposited data

How the results depend on the processing

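No paired analysis was possible because each group has 1 mouse, so the shared number 1 pairs nothing. Alternatives were classes from clusters, no or equal doublet removal, a floor of 2000 UMIs, thinning, a total without the top 50 genes, a mean over cells, up to 5% mitochondrial UMIs, other Mmp12 limits (0.05% and 0.2%), ratios minus the median of the other classes, and, chosen after seeing the data, cells with another lineage's markers kept, a gate margin of 0.5 and the macrophage gates joined. Of 1525 log2 ratios recomputed, 83 changed sign, 68 of them ratios whose own counting interval held 0 (Apoe in alveolar macrophages under clusters among them) and 15 ratios clear of counting error, which follow. Minus the other classes' median, the sign changed for Lpl (-0.36), Fabp4 (-0.56) and Fabp5 (-0.031) in alveolar macrophages, and for Fabp5 in classical monocytes (-0.42) and AT2 cells (-0.61). With classes from clusters it changed for Plin2 in interstitial macrophages (-0.34), Apoe in neutrophils (-0.73), Lpl in Mmp12-low alveolar macrophages (-0.035), Apoe (1.95) and Abca1 (0.24) between Mmp12-high and Mmp12-low alveolar macrophages, Fabp4 between interstitial ones (-0.028), and Abca1 between the Mmp12-high cells of both gates (0.69). With thinned cells it changed for Fabp5 in B cells (-0.54) and for Fabp4 (-0.31) and Abcg1 (-0.22) in Mmp12-low interstitial macrophages. The members 2-fold apart in alveolar macrophages numbered 2, in place of 0, with classes from clusters and with the macrophage gates joined (2). Genes 2-fold apart in alveolar macrophages between the libraries, in Mmp12-low cells and between Mmp12-high and Mmp12-low cells numbered 246, 177 and 368 with at least 50 UMIs, and 2682, 3463 and 2790 over every gene with a UMI, since those settings test fewer and more genes. The number of members highest in alveolar macrophages, added over the libraries, was 12 in the reported setting and under the 5 alternatives run; which members they were was not compared. The cause of the other changes was not tested. Depth limits Apoc2 in every class, and Fabp1 and Cidec outside alveolar macrophages.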
